A study of Mus musculus with 36 samples.

Results

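The 37 genes described here encode parts of the lysosome and of the vacuolar proton pump: 8 subunits of the V1 head, 6 subunits of the V0 membrane base, 2 accessory subunits of the pump, 6 lysosomal membrane proteins, 13 hydrolases or their partners, and the 2 regulators Tfeb and Tfe3. They were taken by name, as a fixed list, from 51734 gene symbols in a table of read counts. The list states no threshold and was selected on function with the changes of these genes in the same 18 libraries already known. Every comparison below therefore counts as used in the choice. The members' changes, and the calls made from p-values, are given as a description and are not read as a test of the list.

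The libraries came from E14 mouse embryonic stem cells (ESC), a line grown here in serum replacement with LIF, and from neural precursor cells (NPC) derived from them. At each stage there were 3 libraries of each of 3 genotypes: wild type (WT), MLL3/4 dCD (dCD below, in which the histone methyltransferases MLL3 and MLL4 are catalytically dead) and MLL2 dTAG (MLL2dTAG below, in which MLL2 carries a degron, so that adding dTAG-13 leads to breakdown of the protein). The labels list dTAG-13 as the treatment of all ESC libraries, WT included, for a time that they do not give. All NPC libraries are labelled as treated with dTAG-13 and RA, the compound having been added at 2 µM on day 1 of differentiation and the cells harvested on day 4. No comparison therefore isolates the compound, each genotype is its own line, and it is not given whether the 3 libraries of a group came from separate cultures, so the tests measure only the spread between these libraries.

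Lysosomes are acidic compartments in which proteins, lipids and sugars are broken down. The V-ATPase acidifies them: its V1 head, in the cytosol, splits ATP and turns a rotor, and its V0 base, in the membrane, carries protons inward. TFEB and TFE3 are related transcription factors known to bind an E-box-containing sequence, the CLEAR element, at many lysosomal genes, and to be held in the cytosol by mTORC1 signalling when nutrients are plentiful. Much of their control therefore acts on the location of the protein, which an RNA measurement does not see.

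Promoter sequences are shown first because the members' changes are later set beside matches to this element. RefSeq promoter windows (build GRCm38.p6, 250 bases before to 50 after each gene's start) were at hand for 31 of the 37 genes. The 10-base palindromic form of the CLEAR element, which reads alike on both strands, was in 0 of the 31 windows and in 0.370% of the windows of 27025 genes. Its 8-base core TCACGTGA, also a palindrome and searched only after the first results were seen, was in 7 of the 31 (22.6%) against 1.12% of all windows. The 6-base E-box CACGTG, which lies inside both longer forms, reads alike on both strands and counts those forms too, was in 12 of the 31 (38.7%) against 8.09%. The stretches below carry the core or the E-box in the genes that the later results return to, 5′ to 3′ on the gene's strand, with the matched letters in capitals. They were chosen for Ctsd and Ctsl, the members with the largest change against WT in dCD NPC and in MLL2dTAG NPC. Lamp1, Mcoln1, Ctsa, Atp6v1a and Atp6v0d1 were added from the membrane protein, hydrolase, V1 and V0 roles. No accessory subunit or regulator is among the stretches.
Ctsd, chr7:142387909-142387936, minus strand: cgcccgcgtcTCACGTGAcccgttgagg
Ctsa, chr2:164833758-164833786, plus strand: tgTCACGTGAtgcagatgcTCACGTGAcc
Mcoln1, chr8:3500442-3500486, plus strand: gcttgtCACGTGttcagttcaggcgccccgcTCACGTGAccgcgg
Atp6v1a, chr16:44139374-44139401, minus strand: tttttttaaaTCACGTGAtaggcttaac
Atp6v0d1, chr8:105566051-105566078, minus strand: cctactgcggTCACGTGAgacgcggtgc
Lamp1, chr8:13159090-13159161, plus strand: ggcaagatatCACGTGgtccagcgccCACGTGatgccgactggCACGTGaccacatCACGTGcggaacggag
Ctsl, chr13:64370741-64370766, minus strand: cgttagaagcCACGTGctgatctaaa

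Lamp1 held 4 separate E-boxes, starting 61, 45, 28 and 15 bases before its start, each flanked by letters that keep it from being the 8-base core. In Ctsa the core occurred 13 bases before and 5 bases after the RefSeq start. The core of Ctsd began 99 bases before the start, with a further E-box, outside the printed stretch, 245 bases before it. The core of Atp6v1a lay 132 bases before its start, that of Mcoln1 46 and that of Atp6v0d1 4. The single E-box of Ctsl lay 236 bases before its RefSeq start. The other cores were in Atp6v0e and Gla, and the other E-boxes in Atp6v0b, Gaa and Glb1. A match is a description of letters and not a measured binding site, and no match says only that these letters are not in this window.

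**Figure D1:**
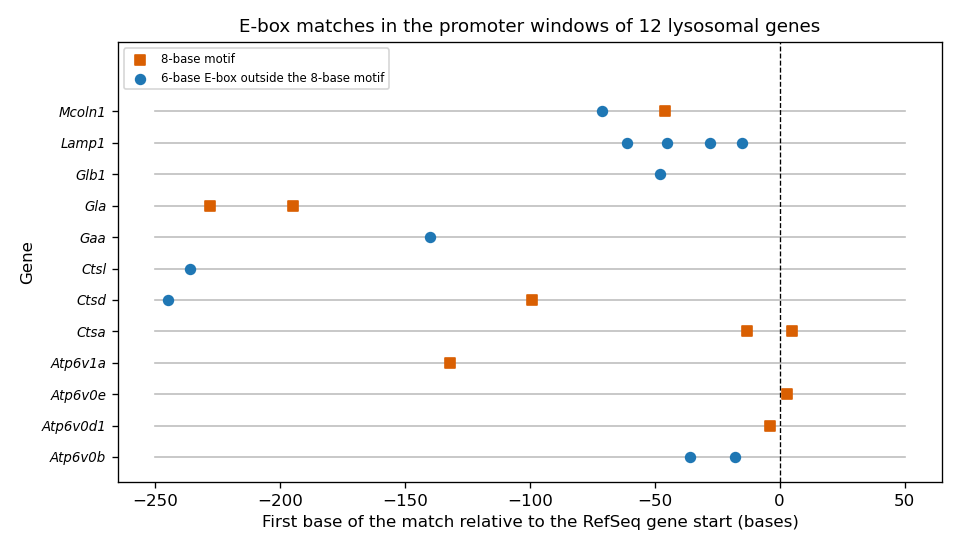
Position of each E-box match (x axis, first base relative to the RefSeq gene start, in bases) in the 12 of 31 lysosomal genes that hold one (y axis); squares mark the 8-base core and circles the 6-base E-box outside it. Lamp1 carries 4 E-boxes between 61 and 15 bases before its start.

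Library totals ranged from 19430860 to 46041277 counts, and 20511 genes, all 37 members among them, had enough counts to be tested. A gene is called below where its adjusted p in edgeR's quasi-likelihood test was under 0.05. Levels are given as CPM, a gene's count divided by its library's TMM-scaled total and multiplied by 1000000, and a log2 change is given ± SE from that fit. The mRNAs of the targeted genes do not check the labels, since a catalytic mutation and a degron act on the protein: Kmt2b (MLL2) averaged 207 CPM in MLL2dTAG ESC against 212 CPM in WT ESC, and Kmt2d (MLL4) 195 CPM in dCD ESC against 185 CPM in WT ESC. Kmt2c (MLL3) averaged 199 CPM in dCD ESC and 193 CPM in WT ESC. In MLL2dTAG ESC Kmt2c was called higher than in WT, at 280 CPM (log2 change 0.54 ± 0.05). The same held in MLL2dTAG NPC, at 322 CPM against 175 CPM in WT NPC (0.88 ± 0.05). Kmt2d was called higher in MLL2dTAG ESC (0.30 ± 0.07), with libraries overlapping WT, and was not called in MLL2dTAG NPC. The stage labels were checked with markers fixed for each cell type. The 6 stem cell markers summed to 2820 to 3350 CPM in the 9 ESC libraries, and to 11.6 to 12.9 CPM in WT NPC, 20 to 21.7 CPM in dCD NPC and 113 to 117 CPM in MLL2dTAG NPC. The 6 neural precursor markers summed to 125 to 157 CPM in ESC. In NPC they summed to 537 to 543 CPM in WT, 628 to 678 CPM in dCD and 546 to 563 CPM in MLL2dTAG. Sox1 alone, however, averaged 3.05 CPM in WT ESC and 3.10 CPM in WT NPC. Against WT NPC, Sox11 was called lower in dCD NPC, Neurog2 was not called and the others were called higher. In MLL2dTAG NPC Pax6, Sox11 and Neurog2 were called lower, Sox1 and Nes higher, and Map2 was not called.

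In NPC nearly the whole set was higher in both mutant genotypes than in WT. In dCD NPC 33 of 37 members were called higher and 1 lower, where 26.7% of all tested genes were called higher and 26.8% lower (53.5% in all). In MLL2dTAG NPC 33 were called higher and 3 lower, beside 33.3% and 28.4% of all tested genes (61.7% in all). Both comparisons use the same 3 WT libraries. The median log2 change of the members was 0.52 in dCD NPC and 0.60 in MLL2dTAG NPC, while that of all tested genes was -0.02 and 0.03. Since the members were named with these results known, nothing is read from how far these counts exceed the background.

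The members' counts summed to 4420, 4400 and 4390 CPM in the 3 WT NPC libraries, to 6420, 6290 and 6330 CPM in dCD NPC, and to 7110, 7130 and 7060 CPM in MLL2dTAG NPC. These 3 ranges did not overlap. In ESC the sums were 4890, 4660 and 4880 CPM in WT, 4660, 4650 and 4690 CPM in dCD, and 4980, 4970 and 4960 CPM in MLL2dTAG. They differed less than those in NPC, but each MLL2dTAG sum lay above all others, while WT and dCD overlapped. As shares of the TMM-scaled totals, the 37 genes took 0.440% in WT NPC, 0.635% in dCD NPC and 0.710% in MLL2dTAG NPC.

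**Figure D2:**
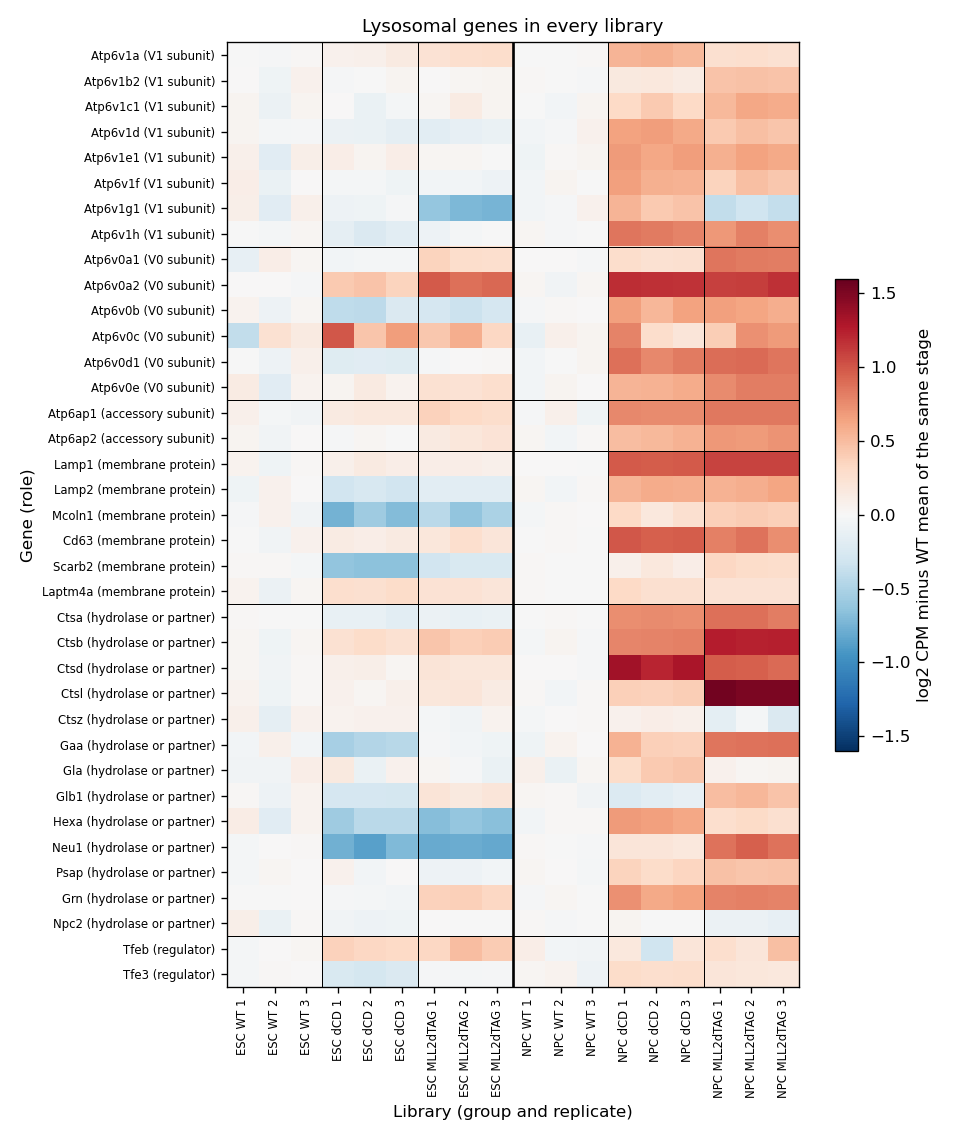
Each of the 37 genes (rows, by role) in each of the 18 libraries (columns); colour is log2 CPM minus the WT mean of the same stage, red for higher and blue for lower. The 6 mutant NPC libraries on the right are red for most genes, whereas the mutant ESC libraries mix red and blue.

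Other cell types' markers moved with the genotype in NPC and are given here for every result in these cells. The 11 markers of primitive and visceral endoderm, an early lineage rich in lysosomes, summed to 612 to 629 CPM in WT NPC, 449 to 468 CPM in dCD NPC and 1210 to 1250 CPM in MLL2dTAG NPC. Their sum was thus lower than in WT in dCD and higher in MLL2dTAG, and none of these markers was at 0 throughout a group. In dCD NPC Gata6 (131 against 127 CPM in WT), Amn and Afp were not called, and the rest were called lower. In MLL2dTAG NPC all 11 were called higher. Gata4, for example, averaged 62.6 CPM in WT, 36.1 CPM in dCD and 253 CPM in MLL2dTAG NPC. The 8 fibroblast or mesenchyme markers summed to 736 to 751, 913 to 1000 and 1080 to 1100 CPM in the same order. They did not move together in either mutant NPC. In dCD NPC Pdgfrb was called lower (18.6 against 36.9 CPM in WT), Pdgfra was not called, and the other markers were called higher. In MLL2dTAG NPC Col3a1 averaged 716 CPM against 295 CPM in WT and Pdgfra 160 against 62.8 CPM. There Col1a1 (99.8 against 156 CPM), Col1a2 (21.3 against 153 CPM), Thy1 and Pdgfrb were called lower. The 8 macrophage markers summed to 1.2 to 1.54 CPM in WT, 0.997 to 1.17 CPM in dCD and 2.61 to 4.24 CPM in MLL2dTAG NPC, where Csf1r averaged 3.15 CPM against 0.706 CPM in WT. Of these 8, 3 were at 0 in WT NPC, 3 in dCD NPC and 1, Ptprc, in MLL2dTAG NPC. The part of such cells in the members' levels was not tested, and in bulk RNA fewer cells of a type and less RNA per cell cannot be told apart.

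All 8 V1 subunits were called higher in dCD NPC, and 7 of them in MLL2dTAG NPC, with median log2 changes of 0.57 and 0.46. Atp6v1h, a regulatory subunit that couples the head to the base, read 49.4, 47.9 and 48.1 CPM in WT NPC, 87.4, 86.1 and 84.0 CPM in dCD NPC, and 78.2, 84.9 and 80.9 CPM in MLL2dTAG NPC. Both mutant groups lay above every WT library, by 0.83 ± 0.04 and 0.75 ± 0.04 on the log2 scale, the largest V1 changes in both. Atp6v1a and Atp6v1b2 form the ATP-splitting ring of the head, and differed in which mutant was higher. The log2 change of Atp6v1a was 0.55 ± 0.03 in dCD NPC and 0.26 ± 0.03 in MLL2dTAG NPC. For Atp6v1b2 it was 0.15 ± 0.03 and 0.46 ± 0.03. Atp6v1d and Atp6v1f, of the central rotor, changed by 0.64 and 0.59 in dCD NPC and by 0.45 and 0.42 in MLL2dTAG NPC. Atp6v1c1, a subunit of the link between head and base, changed by 0.35 and 0.58.

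Atp6v1g1, the G subunit of the stalks that hold the head still, was the exception. Its levels were 66.6, 67.8 and 71.8 CPM in WT NPC, 100, 91.9 and 94.4 CPM in dCD NPC, and 52.3, 55.1 and 52.7 CPM in MLL2dTAG NPC. The dCD libraries were all above and the MLL2dTAG libraries all below WT, at log2 changes of 0.48 ± 0.05 and -0.36 ± 0.05. In ESC it read 71.7, 59.3 and 71.3 CPM in WT, 63.6, 64.1 and 66.1 CPM in dCD, and 43.9, 40.8 and 40.2 CPM in MLL2dTAG. The MLL2dTAG libraries lay below all others there, at -0.69 ± 0.06. Atp6v1e1, which pairs with the G subunit in the stalk, was not called in either mutant ESC, and its log2 change was 0.65 ± 0.05 in dCD NPC and 0.60 ± 0.05 in MLL2dTAG NPC.

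All 6 V0 subunits were called higher in both mutant NPC, with median log2 changes of 0.59 in dCD and 0.82 in MLL2dTAG. Atp6v0a2, one of the alternative a subunits that carry protons and steer the pump to its compartment, read 31.2, 29.2 and 31.1 CPM in WT NPC, 69.1, 68.7 and 67.7 CPM in dCD NPC, and 65.1, 65.7 and 68.6 CPM in MLL2dTAG NPC. Every mutant library held more than any WT library, by 1.17 ± 0.05 and 1.12 ± 0.05. This was also the V0 gene that moved most in MLL2dTAG ESC: WT read 31.0, 31.0 and 30.3 CPM, dCD 41.0, 42.1 and 39.5 CPM, and MLL2dTAG 60.5, 56.5 and 58.3 CPM. The 3 ESC groups did not overlap, and the log2 changes were 0.41 ± 0.05 and 0.93 ± 0.05.

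Atp6v0a1, the other a subunit in the list, rose by 0.26 ± 0.04 in dCD NPC and by 0.84 ± 0.04 in MLL2dTAG NPC. Atp6v0d1, which joins the rotor to the membrane ring, read 68.6, 70.5 and 73.1 CPM in WT NPC, 130, 120 and 126 CPM in dCD NPC, and 131, 133 and 128 CPM in MLL2dTAG NPC. The 2 mutant groups overlapped each other and lay apart from WT, at 0.82 ± 0.04 and 0.89 ± 0.04. Atp6v0b, of the proton-carrying ring, changed by 0.61 ± 0.05 and 0.63 ± 0.05, and the small subunit Atp6v0e by 0.56 ± 0.05 and 0.80 ± 0.05. Atp6v0c, the main ring subunit, is uncertain here: it averaged 3.50 to 8.22 CPM in the 6 groups, and how reads shared with its near-identical copies were counted is not given. Its call in dCD NPC (0.44 ± 0.15) was lost without NPC WT replicate 1 (0.38) or without NPC dCD replicate 1 (0.23).

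The accessory subunits Atp6ap1 and Atp6ap2, which help to assemble the pump, were called higher in both mutant NPC. Atp6ap1 read 112, 120 and 108 CPM in WT NPC, 193, 191 and 192 CPM in dCD NPC, and 203, 204 and 203 CPM in MLL2dTAG NPC. No library of either mutant came near the WT range. Log2 changes were 0.76 ± 0.04 and 0.84 ± 0.04 for Atp6ap1, and 0.52 ± 0.04 and 0.71 ± 0.04 for Atp6ap2.

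**Figure D3:**
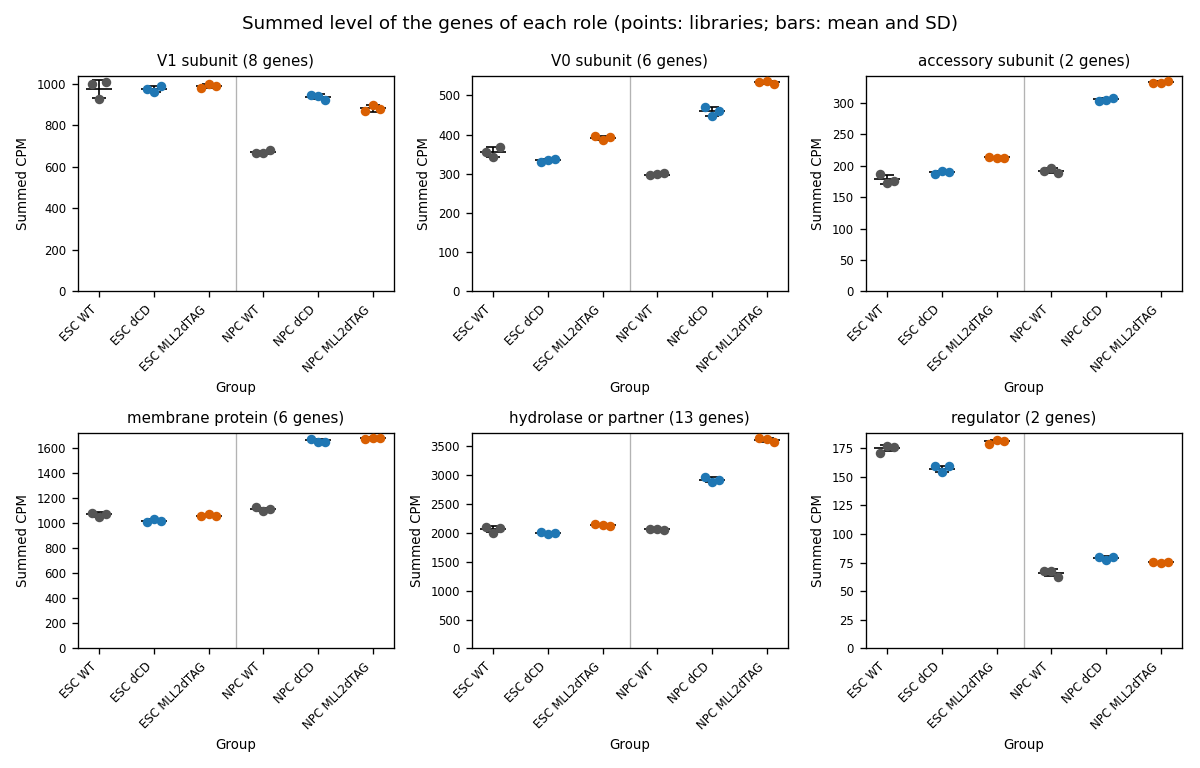
Summed CPM of the members of each role (6 panels) in the 6 groups; points are libraries, bars the mean and SD of 3, and each y axis starts at 0. The 13 hydrolases or partners averaged 2060 CPM in WT NPC, 2910 CPM in dCD NPC and 3600 CPM in MLL2dTAG NPC, whereas the V1 subunits were lower in MLL2dTAG NPC (881 CPM) than in dCD NPC (936 CPM).

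The 6 membrane proteins were all called higher in both mutant NPC. Lamp1, the most abundant glycoprotein of the lysosomal membrane together with Lamp2, read 234, 233 and 232 CPM in WT NPC, 461, 457 and 458 CPM in dCD NPC, and 494, 491 and 494 CPM in MLL2dTAG NPC. The libraries of a group lay within a few CPM of each other and the 3 groups were wholly separate, at log2 changes of 0.98 ± 0.03 and 1.08 ± 0.03. Lamp2 changed by 0.57 ± 0.03 and 0.59 ± 0.03. Cd63, a tetraspanin of late endosomes and lysosomes, averaged 96.2 CPM in WT, 189 CPM in dCD and 168 CPM in MLL2dTAG NPC, changes of 0.97 ± 0.04 and 0.80 ± 0.04. Smaller changes of this role were those of Scarb2, the receptor that brings glucocerebrosidase to lysosomes (0.12 ± 0.04 and 0.30 ± 0.04), and Laptm4a (0.28 ± 0.03 and 0.23 ± 0.03). Mcoln1, the calcium channel TRPML1, changed by 0.24 ± 0.05 and 0.39 ± 0.05.

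Among the 13 hydrolases and partners, 10 were called higher in each mutant NPC, but the leading enzyme differed. Ctsd, the main aspartic protease of lysosomes, read 144, 144 and 141 CPM in WT NPC, 362, 333 and 354 CPM in dCD NPC, and 279, 277 and 267 CPM in MLL2dTAG NPC. The 3 groups did not overlap, and the log2 changes were 1.29 ± 0.04 and 0.94 ± 0.04. Ctsl, a cysteine protease, read 301, 286 and 301 CPM in WT NPC, 385, 383 and 389 CPM in dCD NPC, and 866, 838 and 837 CPM in MLL2dTAG NPC. Here MLL2dTAG stood far above both other groups, at 1.52 ± 0.03 (2.86-fold) against 0.38 ± 0.03 (1.30-fold) in dCD. Ctsb, another cysteine protease, changed by 0.80 ± 0.03 and 1.25 ± 0.03.

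With the log2 change taken directly between the mutants, Ctsl was 1.14 ± 0.03 higher in MLL2dTAG than in dCD NPC and Ctsd was lower, at -0.35 ± 0.03. In all, 17 members were called higher and 11 lower in that direct comparison, beside 31.6% and 24.3% of all tested genes (55.9% in all). The direction of the balance depended on the scaling: upper-quartile factors gave 11 higher and 15 lower, no filter on low counts 11 and 13, and the fit of only these groups 13 and 15. Besides Ctsl and Ctsd, the largest values were those of Atp6v1g1 (-0.84 ± 0.05), Neu1 (0.71 ± 0.04), Glb1 (0.66 ± 0.04) and Atp6v0a1 (0.58 ± 0.04).

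Ctsa, Glb1 and Neu1 encode the 3 enzymes of one complex, in which cathepsin A protects beta-galactosidase and the sialidase from breakdown. They moved unequally in dCD NPC. Ctsa read 118, 120 and 118 CPM in WT NPC, 198, 201 and 199 CPM in dCD NPC, and 218, 218 and 210 CPM in MLL2dTAG NPC. Glb1 read 58.4, 57.9 and 55.2 CPM in WT NPC, 48.9, 51.0 and 52.4 CPM in dCD NPC, and 80.4, 82.4 and 78.1 CPM in MLL2dTAG NPC. It was the 1 member called lower in dCD NPC, where each of its libraries lay under WT. Neu1 read 59.3, 58.0 and 57.6 CPM in WT, 66.5, 66.5 and 65.5 CPM in dCD and 106, 113 and 106 CPM in MLL2dTAG NPC. The log2 changes in dCD NPC were thus 0.75 ± 0.03 for Ctsa, -0.17 ± 0.04 for Glb1 and 0.18 ± 0.04 for Neu1, and in MLL2dTAG NPC 0.86 ± 0.03, 0.49 ± 0.04 and 0.89 ± 0.04.

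Of the other members of this role, Gaa, the acid alpha-glucosidase that degrades glycogen, changed by 0.44 ± 0.04 in dCD and 0.87 ± 0.04 in MLL2dTAG NPC. Hexa, which acts in ganglioside breakdown, had the opposite order, 0.65 ± 0.05 and 0.28 ± 0.05. Psap, the precursor of the saposins that present lipids to hydrolases, changed by 0.33 ± 0.03 and 0.45 ± 0.03, and Grn, which encodes progranulin, by 0.66 ± 0.03 and 0.80 ± 0.03. Gla, the alpha-galactosidase, was called in dCD NPC (0.39 ± 0.07) and not in MLL2dTAG NPC (0.05 ± 0.07). Npc2, the cholesterol carrier of the lysosome lumen, and Ctsz, a carboxypeptidase, were not called in dCD NPC (0.01 ± 0.04 and 0.09 ± 0.05) and were called lower in MLL2dTAG NPC (-0.11 ± 0.04 and -0.14 ± 0.05). Both lower calls were lost without NPC MLL2dTAG replicate 3 (-0.09 for each), and that of Ctsz also without NPC WT replicate 3 or NPC MLL2dTAG replicate 1 (-0.12 for each).

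**Figure D4:**
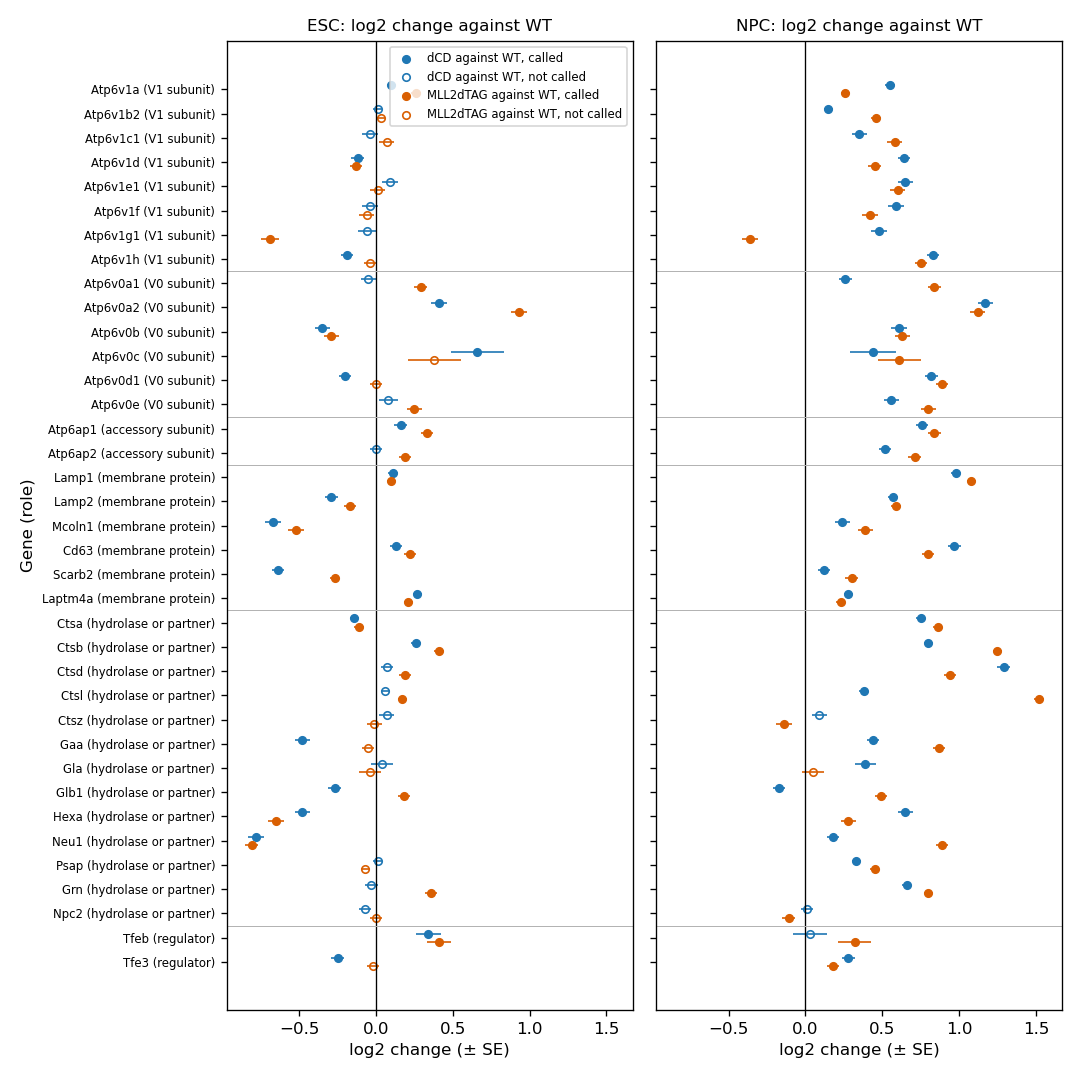
log2 change against WT (x axis, ± SE) of each gene (y axis, by role) in ESC (left) and NPC (right); blue is dCD, orange MLL2dTAG, and open circles are not called. In ESC the values scatter around 0, with Neu1 lowest, and in NPC all but a few lie to the right of 0.

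In ESC these 37 genes had no common direction. In dCD ESC 9 members were called higher and 13 lower, beside 25.7% and 22.6% of all tested genes (48.3% in all). In MLL2dTAG ESC 15 were called higher and 9 lower, beside 28.7% and 28.2% (56.9% in all). The medians were -0.03 and 0.01, close to the 0.02 and -0.00 of all tested genes, and no member was called at least 2-fold higher, beside 5.66% and 6.44% of all tested genes. In NPC, 2 members were called at least 2-fold higher in dCD (Ctsd and Atp6v0a2) and 4 in MLL2dTAG (Ctsl, Ctsb, Atp6v0a2 and Lamp1), beside 7.03% and 7.71% of all tested genes.

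Some members moved opposite ways at the 2 stages: 12 were called lower in dCD ESC and higher in dCD NPC, and 8 lower in MLL2dTAG ESC and higher in MLL2dTAG NPC. Of all 20511 tested genes 4.51% and 5.87% did so, and nothing is read from the difference. Neu1 had the largest of these falls. In ESC it read 75.2, 77.1 and 77.7 CPM in WT, 44.9, 41.9 and 46.9 CPM in dCD, and 43.9, 44.1 and 43.3 CPM in MLL2dTAG. Both mutants lay well under WT there, at -0.78 ± 0.05 and -0.81 ± 0.04, while in NPC, as given above, both lay over it. Mcoln1 read 84.6, 90.1 and 82.3 CPM in WT ESC, 50.8, 57.5 and 53.1 CPM in dCD ESC, and 63.4, 55.4 and 60.4 CPM in MLL2dTAG ESC, changes of -0.67 ± 0.05 and -0.52 ± 0.05. Hexa (-0.48 ± 0.05 and -0.65 ± 0.05) and Scarb2 (-0.64 ± 0.04 and -0.27 ± 0.03) were also called lower in both ESC mutants. Gaa was called lower in dCD ESC (-0.48 ± 0.05) and not in MLL2dTAG ESC (-0.05 ± 0.04), and the direct comparison of the mutants called it higher in MLL2dTAG, by 0.43 ± 0.05.

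Between the mutants in ESC, 19 members were called higher in MLL2dTAG than in dCD and 3 lower, where 23.4% and 23.7% of all tested genes were (47.2% in all). With upper-quartile factors the counts were 13 and 6. Atp6v0a2 (0.52 ± 0.05), Glb1 (0.45 ± 0.04) and Gaa were the highest, and Atp6v1g1 (-0.64 ± 0.06) the lowest.

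The difference between the stages was itself fitted, as an interaction. The change in dCD was called more positive in NPC than in ESC for 31 members and more negative for 0, beside 20% and 22.9% (42.9% in all) of all tested genes. For MLL2dTAG the counts were 30 and 0, beside 26.4% and 22.6% (49% in all). At an unadjusted p under 0.05 in edgeR, 1 member was more negative in dCD (Tfeb) and 1 in MLL2dTAG (Npc2), and DESeq2 called 0 and 1 (Npc2). The median interaction of the members was 0.57 for dCD and 0.55 for MLL2dTAG, against -0.04 and 0.05 over all tested genes. Laptm4a, Ctsz and Npc2 differed least between the stages in dCD, at 0.01 ± 0.05, 0.02 ± 0.07 and 0.08 ± 0.05.

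**Figure D5:**
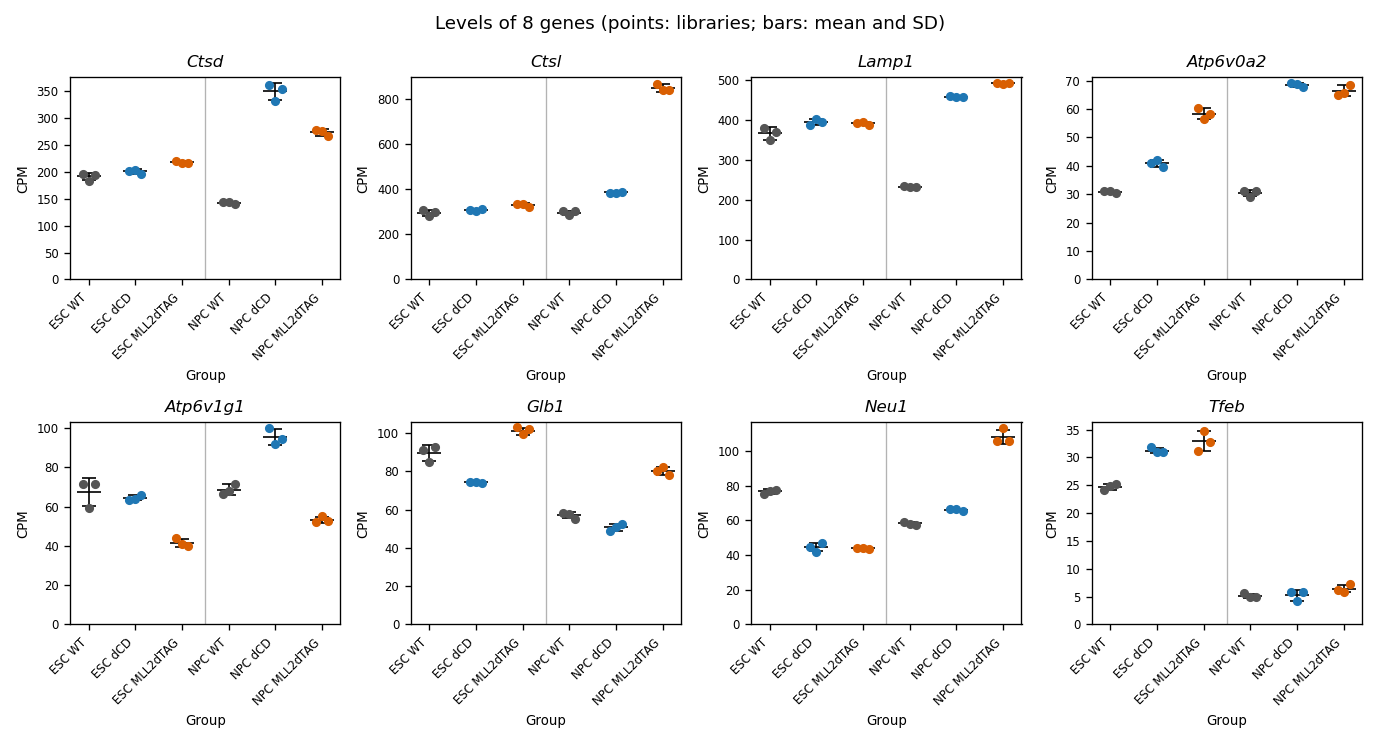
CPM (y axes, from 0) of 8 genes in the 6 groups; points are libraries, bars the mean and SD of 3. Ctsd is highest in dCD NPC (mean 350 CPM) and Ctsl in MLL2dTAG NPC (847 CPM), Atp6v1g1 is lower in MLL2dTAG than in WT at both stages, and Tfeb is at most 7.20 CPM in the NPC libraries.

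In wild type most V1 subunits and both regulators were lower in NPC than in ESC. Of the 37 members 10 were called higher and 23 lower, beside 39.1% and 40.4% of all tested genes (79.5% in all), with a median of -0.42. That median was -0.23 with offsets for GC content and length, and -0.04 over all genes in the fit without them. No V1 subunit was called higher and 7 of 8 were called lower. The V0 subunits were divided, 2 called higher and 3 lower, and the accessory subunit Atp6ap1 was called higher (0.27 ± 0.04). The V1 sum was 997, 927 and 1010 CPM in WT ESC and 664, 667 and 679 CPM in WT NPC, with no overlap. It was 945, 940 and 923 CPM in dCD NPC and 866, 899 and 879 CPM in MLL2dTAG NPC, which is nearer to the WT ESC values than to those of WT NPC.

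Among single members the fall from WT ESC to WT NPC was largest, outside the regulators, for Atp6v1c1 (-0.89 ± 0.05), Atp6v0d1 (-0.84 ± 0.04), Atp6v1h (-0.83 ± 0.04) and Mcoln1 (-0.82 ± 0.05). Members called higher in WT NPC included Laptm4a (0.94 ± 0.03), Atp6v0a1 (0.73 ± 0.04) and Lamp2 (0.71 ± 0.04). The signs for Atp6ap2, Ctsl, Ctsz and Grn, all between -0.12 and 0.01, turned under other scalings or filters. So the 2 lysosome-associated membrane proteins went opposite ways with differentiation, Lamp1 falling by 0.65 on the log2 scale and Lamp2 rising by 0.71, and both were called higher in mutant than in WT NPC.

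Tfeb and Tfe3 had the largest falls of all 37 members from WT ESC to WT NPC. Tfeb read 24.1, 24.9 and 25.2 CPM in WT ESC and 5.57, 4.98 and 4.94 CPM in WT NPC, a log2 change of -2.26 ± 0.09. In dCD NPC it read 5.80, 4.14 and 5.90 CPM and in MLL2dTAG NPC 6.2, 5.92 and 7.20 CPM. The dCD libraries overlapped WT and the change was not called (0.03 ± 0.11), while that in MLL2dTAG was (0.32 ± 0.11). That call was lost without NPC MLL2dTAG replicate 3 (0.23) and with upper-quartile factors (0.23). In ESC both mutants were called higher for Tfeb, by 0.34 ± 0.08 and 0.41 ± 0.08. There Tfe3 was called lower in dCD (-0.25 ± 0.04) and was not called in MLL2dTAG (-0.02 ± 0.04). Tfe3 read 147, 152 and 151 CPM in WT ESC and 62.2, 63.2 and 57.5 CPM in WT NPC (-1.30 ± 0.04), and was called higher in both mutant NPC, at 0.28 ± 0.04 and 0.18 ± 0.04.

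Per kilobase of exon, so that genes can be set beside each other, the mean level over all 18 libraries was highest for Laptm4a (180 CPM per kb), Psap (163 CPM per kb), Lamp1 (146 CPM per kb) and Ctsd (97.6 CPM per kb). It was lowest for Atp6v0c (1.71 CPM per kb) and Tfeb (3.11 CPM per kb), with Tfe3 at 11.3 CPM per kb. The order at the top differed by stage: Lamp1 was highest in each ESC group (137 CPM per kb in WT, 148 in dCD and 147 in MLL2dTAG) and Laptm4a in each NPC group (210, 255 and 246 CPM per kb). Subunits of one pump spread widely on this scale: among the V1 subunits from 7.89 CPM per kb (Atp6v1h) to 60 CPM per kb (Atp6v1f), with the long annotated exons of Atp6v1h (9746 bases in all) entering the divisor.

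The changes were also set beside the promoter letters. The 7 members with the 8-base core had a median log2 change of 0.56 in dCD NPC and 0.80 in MLL2dTAG NPC, and the 24 members with a promoter window but no core 0.44 and 0.60. Outside the list, 234 tested genes had the core. Their medians were -0.02 in dCD NPC and 0.12 in MLL2dTAG NPC, beside -0.00 and 0.06 for all 12978 tested genes with a window, and 29.5% and 46.6% of them were called higher, beside 31.1% and 39.1%. In WT differentiation all 7 members with the core were called lower, with a median of -0.50. Of the 24 members without it 13 (54.2%) were called lower, with a median of -0.11. Of the other genes with the core 38.5% were called lower, beside 41.5% of all tested genes with a window.

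A wider list of 126 other lysosome and autophagy genes moved both ways. Of the 122 tested, 59 were called higher and 31 lower in dCD NPC, beside 26.7% and 26.8% of all tested genes, with a median of 0.12 and a range from -1.77 to 2.22. In MLL2dTAG NPC 73 were called higher and 22 lower, beside 33.3% and 28.4%, with a median of 0.25 and a range from -3.40 to 2.72. The members ranged from -0.17 to 1.29 and from -0.36 to 1.52 in these comparisons. In dCD ESC the wider list's counts were 32 higher and 50 lower, beside 25.7% and 22.6%, and in MLL2dTAG ESC 45 and 48, beside 28.7% and 28.2%. By role, 9 of 19 other lysosomal membrane proteins were called higher and 5 lower in dCD NPC, and 12 and 2 in MLL2dTAG NPC. Of 10 sorting factors 6 were called higher and 4 lower in dCD NPC, and 8 and 1 in MLL2dTAG NPC. Of 47 other hydrolases or partners 20 were called higher and 15 lower in dCD NPC, and 25 and 15 in MLL2dTAG NPC. So single hydrolases outside the list fell where most members rose. Ctsh, an aminopeptidase, read 20.8, 18.9 and 19 CPM in WT NPC, 6.78, 7.67 and 9.21 CPM in dCD NPC, and 2.11, 1.61 and 1.88 CPM in MLL2dTAG NPC. It fell in both mutants, by 1.31 and 3.40 on the log2 scale.

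Gm2a, an activator protein of ganglioside breakdown, fell by 1.19 in dCD NPC, whereas Hexa rose there. Ctso, a further cysteine protease, fell by 1.93 in MLL2dTAG NPC. The largest rises of the wider list among genes at 5 CPM or more on average were those of Acp5, the tartrate-resistant acid phosphatase (1.92 ± 0.11 in dCD and 1.91 ± 0.11 in MLL2dTAG NPC), and Cd68, a membrane glycoprotein used as a macrophage marker (2.03 ± 0.08 in MLL2dTAG NPC). Cd68 read 4.34, 4.29 and 4.64 CPM in WT NPC and 18.3, 17.5 and 18.6 CPM in MLL2dTAG NPC, and of the macrophage markers Csf1r was called higher in the same libraries (2.16 ± 0.30) and Cd14 lower (-1.66 ± 0.54). Cd68 was also called higher in dCD NPC (1.07 ± 0.09), where the 8 macrophage markers summed to 0.997 to 1.17 CPM, against 1.2 to 1.54 CPM in WT NPC. From WT ESC, where these markers summed to 0.862 to 1.7 CPM, to WT NPC it fell (-2.48 ± 0.08). Whether macrophages have a part in the level of Cd68 was not tested. Rragd, a Rag GTPase that carries nutrient signals to mTORC1, had opposite changes in the mutants: 44.8, 46.8 and 43.8 CPM in WT NPC, 107, 119 and 111 CPM in dCD NPC, and 28.6, 31.1 and 29.0 CPM in MLL2dTAG NPC. In ESC the order was the same, 50.3, 49.1 and 50.1 CPM in WT, 79.7, 80.5 and 83.3 CPM in dCD, and 17.1, 18.8 and 19 CPM in MLL2dTAG.

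Mitf, a relative of Tfeb and Tfe3 in the same family, read 3.04, 3.01 and 3.18 CPM in WT NPC, 3.86, 3.61 and 3.55 CPM in dCD NPC, and 10.2, 11 and 11.3 CPM in MLL2dTAG NPC. It was 1.56 ± 0.09 higher on the log2 scale in MLL2dTAG than in dCD NPC. Naaa, which hydrolyses N-acylethanolamines, was also among the highest in that direct comparison (1.58 ± 0.08).

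Among genes of the wider list that were called, averaged at least 5 CPM over the groups compared and did not overlap between them, the lowest and highest changes in ESC were Atp6v0a4 (-1.54 ± 0.12), Acp5 (-0.87 ± 0.11), Nagpa (0.70 ± 0.11) and Rragd (0.71 ± 0.05) in dCD, and Laptm4b (-1.89 ± 0.04), Gabarapl1 (-1.6 ± 0.06), Laptm5 (1.06 ± 0.07) and Manba (1.35 ± 0.04) in MLL2dTAG. Manba, the lysosomal beta-mannosidase, read 107, 106 and 111 CPM in WT ESC, 154, 145 and 159 CPM in dCD ESC, and 281, 269 and 279 CPM in MLL2dTAG ESC.

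The 9 second isoforms of pump subunits, mostly known from kidney, bone or brain, were low except for 3. Atp6v0a4, an a subunit of acid-secreting cells, read 27.9, 29.9 and 30 CPM in WT ESC, 8.71, 10.4 and 11.1 CPM in dCD ESC, 11.3, 9.93 and 11 CPM in MLL2dTAG ESC, and 0.564 CPM or less in every NPC library. It was thus lower in both mutant ESC, in which Atp6v0a2 was higher. Tcirg1, the a subunit of osteoclasts, read 26.1, 28.5 and 26.5 CPM in WT NPC and 41.0, 35.5 and 38.4 CPM in dCD NPC (0.50 on the log2 scale). Atp6v0e2 rose by 1.77 ± 0.07 from WT ESC to WT NPC, and Atp6v1g2 was called lower in both mutant ESC, at 1.91 CPM or less, its dCD and WT libraries overlapping. Atp6v1b1, Atp6v1c2, Atp6v1e2 and Atp6v0d2 stayed under 1 CPM in all libraries and Atp6v1g3 had no count in any.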

How the data were processed

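The authors deposited a table of whole-number read counts per gene symbol, counted with HTSeq per the submitters' processing notes; aligner, build and strand setting are not given in the sources used here. RNA was prepared with a stranded mRNA kit, per the labels' protocols. Of 36 samples in 14 groups, 18 in 6 groups were used. The other 18 are not analysed here, nor are 6 columns of the same table whose names are shared. Of counts from 1 to 10, 60.8% to 66.5% were even in each library. A count may therefore not stand for 1 independent fragment and the totals may overstate depth, while the SEs rest on the spread between libraries. The cause was not tested. All 37 mitochondrial genes were at 0.

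From the counts, genes passing edgeR's filter (minimum count 10) were fitted with TMM factors, 1 mean per group and quasi-likelihood tests over all 18 libraries (edgeR 4.0.16, limma 3.58.1, R 4.3.3), and p-values were Benjamini-Hochberg adjusted over all 20511 genes at 0.05. The fitting was tested on simulated data. Same-group libraries gave a chi-square per degree of freedom of 2.19 to 10.53 over 18 pairs. Because a count may not stand for 1 independent fragment, the lowest of these may hold no spread beyond sampling noise. These values do not show whether the libraries came from separate cultures. Each library was counted once. Alternatives were other scalings, no filter, offsets for GC content and length, a replicate block, only the groups compared, DESeq2 1.42.0, and each library left out. CPM values use the TMM-scaled totals (factors 0.967 to 1.05). Figures used Python 3.11.15 and pandas 2.3.3. Exon lengths came from GENCODE M21.

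The members, the wider list and the markers were chosen with earlier results of these data known. The member with the largest change of each role in each comparison of 2 groups is named. Values per library are given for some of these members and for Tfeb and Tfe3. Other members given per library were added after their values were seen. Of the wider list the 2 highest and 2 lowest called genes at a mean of at least 5 CPM, without overlap, and all second isoforms are named, except 1 result that is not reported here.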

Additional observations from a re-analysis of the deposited data

Results flagged for a closer look

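Each gene below was picked out because its change against WT differed between NPC and ESC by edgeR's test of that difference, an interaction on the log2 scale in which a positive value means a more positive change in NPC. For dCD the values among the members were 0.14 for Atp6v1b2, 0.31 for Atp6v0a1, 0.32 for Psap, 1.02 for Atp6v0d1, 1.13 for Hexa and 1.22 for Ctsd. Atp6v1b2 was no longer called without a filter on low counts, in the fit of only the groups compared, or without ESC WT replicate 3 or ESC dCD replicate 1. Of the wider list, dCD differed by -0.95 for Naaa, -0.85 for Ctso, 1.85 for Laptm5 and 2.79 for Acp5. The value for Laptm5 has an SE of 0.3, and this gene changed by -6.91 ± 0.15 from WT ESC to WT NPC. Acp5 fell by 0.87 in dCD ESC and rose by 1.92 in dCD NPC.

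For MLL2dTAG the members' values were 0.20 for Atp6v0a2, 0.20 for Tfe3, 0.31 for Glb1, 0.98 for Lamp1, 1.35 for Ctsl and 1.70 for Neu1. The values for Atp6v0a2 and Tfe3 were no longer called without the filter on low counts (0.10 and 0.11). Of the wider list, MLL2dTAG differed by -2.70 for Ctsh, -2.13 for Ctso, 2.22 for Cd68 and 3.19 for Atp6v0a4. Atp6v0a4 had 0.564 CPM or less in every NPC library, so its value rests on few counts.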

How the results depend on the processing

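In all, 7456 values of 58 genes were compared under 7 other fits and with 18 libraries left out in turn. Of these, 7203 kept their call or lack of one, 166 lost the call, 79 gained one and 8 turned. A value counted as turned only where its sign changed and the gene was called in the report's fit or the other. Sign changes of genes called in neither would be among the 7203. The 8 were Atp6ap2 in dCD ESC (-0.11) and in WT NPC against WT ESC (0.10), Ctsz there (0.25), and, between the mutants in ESC, Atp6v1d (0.09) and Ctsa (-0.09), all with offsets for GC content and length; Ctsl in WT NPC against WT ESC (-0.08 with upper-quartile factors, -0.12 with the offsets); and Grn there without a filter on low counts (0.01). The cause was not tested. The members' median moved as follows. With upper-quartile factors it was -0.04 in MLL2dTAG ESC, 0.51 in MLL2dTAG NPC, -0.50 in WT NPC against WT ESC (where all genes then had a median of -0.119 in place of -0.037), 0.05 between the mutants in ESC and 0.00 between those in NPC. Without a filter it was 0.07 in MLL2dTAG ESC, -0.32 in WT NPC against WT ESC, 0.02 between the mutants in NPC and 0.45 for the interaction of MLL2dTAG. The offsets gave -0.23 in WT NPC against WT ESC, and the fit of only the groups compared 0.55 in MLL2dTAG NPC and 0.03 between the mutants in NPC. Leaving out 1 library gave -0.01 to 0.07 in MLL2dTAG ESC, the highest without ESC WT replicate 3, and 0.53 to 0.62 for the interaction of dCD, with 32 to 33 members called higher in either mutant NPC. Members called lower in MLL2dTAG NPC numbered 1 without NPC MLL2dTAG replicate 3. Between the mutants in ESC, 6 members were called lower with upper-quartile factors, with the offsets, or in the fit of only the groups compared. In the interactions, members called lower numbered 0 in the report's fit and at most 1 (dCD) or 2 (MLL2dTAG) elsewhere. The 10-base motif was in 0.27% of all promoters before the start, the 6-base E-box in 38.7% of the members' and 8.09% of all, and the 8-base core, added after seeing the data, in 22.6% and 1.12%.

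Same-numbered libraries did not deviate together (45 correlations from -0.226 to 0.099, and 15 of 45 best with their own number), so numbers do not pair samples. With a replicate block 22 members were called in dCD ESC, as without it, and the block changed the call of no member.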
